A study of Mus musculus with 32 samples.

Results

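Metallothioneins and zinc transporters were followed in 3T3-L1 adipocytes as 8 genes, taken by gene symbol: Mt1 and Mt2 (the metallothioneins), Mtf1, Slc30a1, Slc39a14, Slc39a8, Slc39a1 and Slc39a6. The members were taken by name and not by a threshold on a measured value, but with earlier results of these data known. All 8 were found once each among the 57186 genes listed, and all 8 were among the 14428 genes that passed the filter on low counts and were tested. The study sequenced 32 libraries of the mouse preadipocyte line 3T3-L1, which turns into fat cells in culture under a hormone cocktail. The cells of every group had been differentiated with insulin, dexamethasone (a glucocorticoid) and IBMX in serum-containing medium, and every group was treated for 24 h. The 8 groups, with 4 libraries each, were SCO with TNF-alpha (TNF), CAP7 with TNF, rosiglitazone (ROSI) with TNF, DMSO vehicle with TNF, SCO, CAP7 and ROSI without TNF, and DMSO without TNF. TNF is an inflammatory cytokine, and ROSI activates PPARγ, a nuclear receptor needed for adipogenesis. The labels leave SCO undefined (an extract of Artemisia scoparia appears in the title of the series). The sources used here give neither what CAP7 is nor any dose. The labels name no added metal, and zinc itself was not measured. One cell line was used, and the labels call the 4 libraries of a group biological replicates without naming a culture or day, so the p-values measure the spread between these libraries.

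Metallothioneins are small cysteine-rich proteins that bind zinc and copper and buffer the free metal in the cell. MTF1 is the zinc sensor: when free zinc rises, its zinc fingers bind metal response elements in the promoters of the metallothionein genes and of Slc30a1, the zinc exporter of the plasma membrane. The SLC39 (ZIP) proteins carry zinc the other way, into the cytosol. Slc39a14 and Slc39a8 also carry iron and manganese, and Slc39a14 is known in mouse liver for its induction by IL-6 during the acute phase response. Metallothionein genes are also known to be induced by glucocorticoids, by inflammatory cytokines and by oxidative stress. All of this is background and not a result of these libraries.

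The promoters of the MTF1 target genes among the members are shown because Mt1 and Mt2 moved together while Slc30a1 moved little. Each is the RefSeq window (GRCm38.p6) of 300 bases, from 250 before to 50 after the gene start in that table, and capitals mark the core of the metal response element, TGCACNC or TGCGCNC, on either strand.
Mt1, chr8:94178839-94179138, plus strand: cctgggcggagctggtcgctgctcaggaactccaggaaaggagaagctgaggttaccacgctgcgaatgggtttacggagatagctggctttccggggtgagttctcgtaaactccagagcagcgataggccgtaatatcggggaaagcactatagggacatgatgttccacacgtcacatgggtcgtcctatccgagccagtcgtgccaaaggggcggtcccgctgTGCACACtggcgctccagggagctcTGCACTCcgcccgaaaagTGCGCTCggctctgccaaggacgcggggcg
Mt2, chr8:94172368-94172667, plus strand: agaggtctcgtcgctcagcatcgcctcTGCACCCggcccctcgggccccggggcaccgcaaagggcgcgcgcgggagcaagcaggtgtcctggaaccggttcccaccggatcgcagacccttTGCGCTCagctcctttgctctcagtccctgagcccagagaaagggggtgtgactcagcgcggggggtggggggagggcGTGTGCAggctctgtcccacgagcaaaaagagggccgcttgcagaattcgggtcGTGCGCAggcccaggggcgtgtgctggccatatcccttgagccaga
Slc30a1, chr1:191906531-191906830, plus strand: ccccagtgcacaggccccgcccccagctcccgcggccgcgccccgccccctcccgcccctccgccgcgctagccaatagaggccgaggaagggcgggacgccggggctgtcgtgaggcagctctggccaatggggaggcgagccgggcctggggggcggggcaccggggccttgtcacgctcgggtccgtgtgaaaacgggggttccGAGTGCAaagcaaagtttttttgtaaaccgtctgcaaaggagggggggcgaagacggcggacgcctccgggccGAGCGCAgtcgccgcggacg
The core occurred 3 times in the Mt1 window, 4 times in the Mt2 window and 2 times in the Slc30a1 window. Among all 32851 RefSeq promoter windows of the same length, 25.7% held at least 1, 7.11% at least 2, 1.97% at least 3 and 0.517% at least 4. No core was found in the windows of Mtf1 or Slc39a1, and of the 2 windows of Slc39a8 only 1 held a core. The STAT element TTCNNNGAA, searched on both strands, had no match in any of these windows and at least 1 match in 8.30% of all windows. The core of the antioxidant response element, TGACNNNGC, had 1 match each in the windows of Mt2, Slc30a1 and Slc39a1 and in 1 of the 2 windows of Slc39a8, against 12.4% of all windows with at least 1. None of the matches shared bases with a metal response element core. Windows of 6 of the 8 members were searched, and no window of Slc39a14 or Slc39a6 was among them. Of these cores, 2 of 3 in the Mt1 window, 1 of 4 in the Mt2 window and 1 of 2 in the Slc30a1 window lay after the gene start of the table. No start site was measured here, and the start of the table may not be the one most used (for Mt1 it may lie upstream of it), so which cores lie before the start in these cells is not known. Mt2 and Mt1 are neighbours on chromosome 8, near Mt3 and Mt4. The longest stretch of identical sequence between an Mt1 and an Mt2 transcript was 20 bases.

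Each library held between 11.3 and 37.7 M counts (median 20.9 M, where 1 M is 1e6). Levels are given in CPM, the counts per 1e6 of a library total scaled by TMM factors. The reads come from the 3' ends of mRNA, and levels are compared between groups for 1 gene at a time, not between genes. Fold changes are given as log2 ± standard error, and a gene was called at a Benjamini-Hochberg adjusted p under 0.05 over all genes tested by edgeR's quasi-likelihood test. Adipocyte markers were abundant in all groups, with a summed level of 32602 to 41136 CPM in SCO with TNF, 35800.4 to 43658 in CAP7 with TNF, 51974 to 62391 in ROSI with TNF and 14513 to 17439 in DMSO with TNF. Without TNF that sum was 58564 to 67212 CPM in SCO, 47973 to 59152 in CAP7, 64275 to 75705 in ROSI and 41556 to 44366 in DMSO. Of the 7 adipocyte markers, Lep was near 0 throughout. In bulk RNA, fewer cells of a type and less RNA per cell cannot be told apart. The 6 macrophage and leukocyte markers summed to 10.6 to 14.1 CPM in DMSO with TNF and 1.78 to 4.03 CPM in DMSO without TNF, most of it in the first group from Cd68. Adgre1 was at 0 in every group, and Ptprc and Itgam averaged under 0.1 CPM in each. The 6 endothelial and mural markers summed to 1.52 to 6.46 CPM over all libraries.

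Both metallothionein genes rose strongly with TNF in every treatment. In DMSO-treated cells Mt2 rose 13.5-fold and Mt1 3.62-fold, so that Mt2, the less counted of the pair without TNF, became the more counted with it. Mt1 had 7631, 7842, 7899 and 8326 CPM in DMSO with TNF, against 2249.7, 2279, 2123 and 2099 CPM in DMSO without TNF. Mt2 had 12771, 13765, 13479 and 14182 CPM in DMSO with TNF, against 1002, 1065, 939 and 1013 CPM in DMSO without TNF. For both genes every library with TNF was above every library without it, by a wide gap. The log2 change was 1.86 ± 0.08 for Mt1 (95% interval 1.70 to 2.02, adjusted p = 7.48e-22 by edgeR) and 3.75 ± 0.16 for Mt2 (3.43 to 4.07, adjusted p = 5.92e-22). The 2 other metallothionein genes of the cluster, Mt3 (known as the brain form) and Mt4 (known from squamous epithelium), were at 0 counts in every group and were not tested.

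With the compounds the metallothioneins rose with TNF as well. Mt1 had 6879, 7358, 6079 and 6951 CPM in SCO with TNF, against 2127, 2262, 2098 and 2333 in SCO without TNF. It had 7761, 8287, 7417 and 8447 CPM in CAP7 with TNF, against 2866, 2698, 3037 and 2772 in CAP7 without TNF. In ROSI the values were 6128, 7074, 6253 and 5849 CPM with TNF and 1511, 1799.8, 1501 and 2066 CPM without. Within each treatment the Mt1 libraries with and without TNF stayed apart, and even the lowest library with TNF, 5849 CPM in ROSI, was above the highest without, 3037 CPM in CAP7. Mt2 had 9873, 10749, 7522 and 10335 CPM in SCO with TNF, against 1048, 1205, 931 and 1412 in SCO without TNF. It had 11816, 13468, 11037 and 12031 CPM in CAP7 with TNF, against 1975, 1593, 2187 and 1716 in CAP7 without TNF. In ROSI the values were 8979, 11022, 8088 and 8376 CPM with TNF and 623, 842, 557 and 1146 CPM without. The ROSI libraries without TNF were the most spread for Mt2, with replicate 4 well above the other 3. The log2 changes of Mt1 with TNF were 1.63 ± 0.08 in SCO, 1.49 ± 0.08 in CAP7 and 1.88 ± 0.08 in ROSI, and those of Mt2 were 3.07 ± 0.15, 2.69 ± 0.15 and 3.53 ± 0.16 in the same order (edgeR adjusted p at most 6.50e-18).

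**Figure D1:**
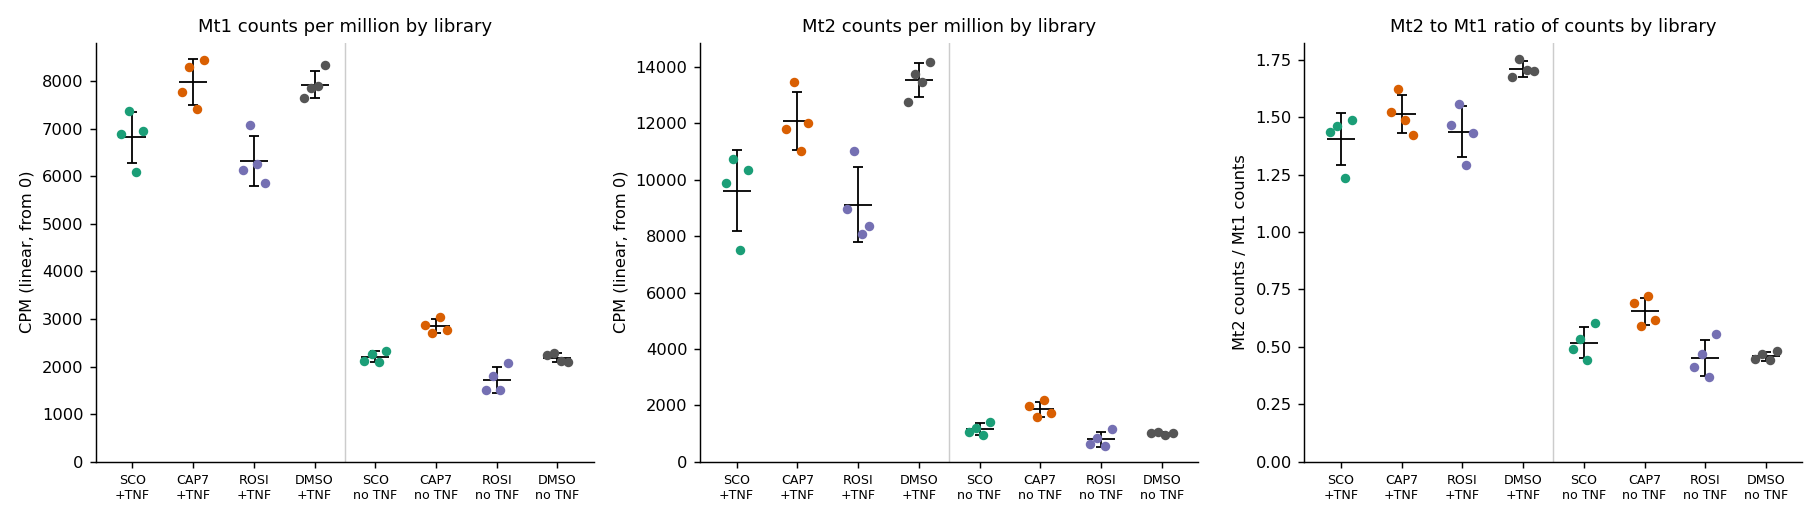
Mt1 and Mt2 in CPM (left and middle, linear axes from 0) and the ratio of Mt2 to Mt1 counts (right) in the 32 libraries. Points are libraries in replicate order and bars are the mean and SD of 4; all libraries with TNF lie above all without it in each panel, and the Mt2 to Mt1 ratio runs from 1.24 to 1.76 with TNF and from 0.371 to 0.720 without.

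The balance between the pair shifted towards Mt2 with TNF. The ratio of Mt2 to Mt1 counts was 1.24 to 1.49 in SCO with TNF, 1.42 to 1.63 in CAP7 with TNF, 1.29 to 1.56 in ROSI with TNF and 1.67 to 1.76 in DMSO with TNF. Without TNF it was 0.444 to 0.605 in SCO, 0.590 to 0.720 in CAP7, 0.371 to 0.555 in ROSI and 0.442 to 0.483 in DMSO. No library with TNF reached down to the range without TNF. Among groups with TNF, the 4 DMSO libraries lay above all libraries of the 3 compounds, and among groups without TNF the CAP7 libraries lay above the DMSO libraries. The ratio depends on how reads were counted at each 3' end, so only its differences between groups can be read.

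Without TNF the compounds moved the metallothioneins in different directions: CAP7 raised them, ROSI lowered Mt1, and SCO moved neither past the threshold. Mt1 averaged 2843 ± 146 CPM in CAP7, 1719.5 ± 269.7 in ROSI and 2188 ± 89.6 in DMSO (SD, n = 4 each). Mt2 averaged 1868 ± 266 CPM in CAP7, 792 ± 266 in ROSI and 1005 ± 51.7 in DMSO (SD, n = 4 each). The CAP7 libraries were all above the DMSO libraries for both genes, and the ROSI libraries were all below them for Mt1 but not for Mt2. With CAP7 the log2 change was 0.38 ± 0.08 for Mt1 (edgeR adjusted p = 0.000161) and 0.89 ± 0.14 for Mt2 (adjusted p = 4.52e-06), or 1.86-fold. With ROSI it was -0.35 ± 0.08 for Mt1 (edgeR adjusted p = 0.000332). For Mt2 with ROSI it was -0.34 ± 0.14, which missed the threshold (edgeR adjusted p = 0.0536) but passed it under 5 of the other 8 settings, and without ROSI replicate 4 it was -0.58 (adjusted p = 0.000472). With SCO the log2 differences were 0.01 ± 0.08 for Mt1 (95% interval -0.14 to 0.17) and 0.19 ± 0.14 for Mt2 (-0.09 to 0.48).

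Among the 3 pairs of compounds without TNF, CAP7 and ROSI differed most. Without TNF, CAP7 exceeded ROSI by 0.73 ± 0.08 log2 units for Mt1 (edgeR adjusted p = 1.10e-08) and by 1.24 ± 0.14 for Mt2 (adjusted p = 6.85e-08), with no overlap of libraries. SCO lay between them: it exceeded ROSI by 0.36 ± 0.08 for Mt1 and 0.54 ± 0.14 for Mt2, and differed from CAP7 by -0.37 ± 0.08 for Mt1 and -0.70 ± 0.14 for Mt2, all called by edgeR (adjusted p from 0.000835 to 0.00692). The excess of SCO over ROSI for Mt2 was no longer called without SCO replicate 4 (log2 0.42, adjusted p = 0.0553) or without ROSI replicate 3 (0.40, adjusted p = 0.0502).

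With TNF the metallothioneins were lower with ROSI and with SCO than with DMSO, while CAP7 and DMSO were not called different. Mt2 averaged 9619.9 ± 1444 CPM in SCO, 12088 ± 1014 in CAP7, 9116 ± 1324 in ROSI and 13549 ± 594 in DMSO, all with TNF (SD, n = 4 each). The SCO and ROSI libraries were all below the DMSO libraries, while the CAP7 libraries overlapped them. Against DMSO with TNF, Mt2 changed by -0.57 ± 0.14 with ROSI (edgeR adjusted p = 0.00130) and by -0.49 ± 0.14 with SCO (adjusted p = 0.00913), and Mt1 by -0.32 ± 0.08 with ROSI (adjusted p = 0.000715) and by -0.22 ± 0.08 with SCO (adjusted p = 0.0362). With CAP7 the differences were 0.01 ± 0.08 for Mt1 (95% interval -0.14 to 0.16) and -0.16 ± 0.14 for Mt2 (-0.45 to 0.12), and neither was called, although Mt2 was called in the fit with no filter on low counts (edgeR adjusted p = 0.0451). The SCO calls depended on single libraries. Mt2 with SCO was -0.39 without SCO with TNF replicate 3 (edgeR adjusted p = 0.0579). Mt1 with SCO lost its call in 6 of 8 fits that left out 1 library (log2 -0.23 to -0.16, edgeR adjusted p 0.0540 to 0.167), those without DMSO with TNF replicates 2, 3 or 4 or SCO with TNF replicates 1, 3 or 4. Between compounds with TNF, Mt1 was 0.33 ± 0.08 higher with CAP7 than with ROSI (edgeR adjusted p = 0.00296). Mt2 was 0.41 ± 0.14 higher, which missed the threshold (adjusted p = 0.0670), but passed it under 5 of the other 8 settings and without ROSI with TNF replicate 2 (log2 0.51, adjusted p = 0.0273). SCO and CAP7 with TNF differed by -0.23 ± 0.08 for Mt1, just short of the threshold (edgeR adjusted p = 0.0531). That difference was called under 6 of the other 8 settings, and also without SCO with TNF replicate 2 (log2 -0.26, adjusted p = 0.0362) or without CAP7 with TNF replicate 3 (-0.26, adjusted p = 0.0451).

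The TNF response itself differed between CAP7 and DMSO. The log2 change of Mt2 with TNF was smaller in CAP7-treated than in DMSO-treated cells by a difference of -1.06 ± 0.20 (edgeR interaction, adjusted p = 0.000175), and that of Mt1 by -0.37 ± 0.11 (adjusted p = 0.0150). Without TNF both genes were higher in CAP7 than in DMSO, and with TNF neither was called different. For SCO the interaction was -0.69 ± 0.20 for Mt2 (edgeR adjusted p = 0.0358). It lost its call in 10 of 16 fits that left out 1 library (log2 -0.70 to -0.57, adjusted p 0.0518 to 0.114) and kept it only without DMSO replicate 2, SCO replicates 1 or 3, DMSO with TNF replicate 1, or SCO with TNF replicates 2 or 4. DESeq2 did not call it (adjusted p = 0.0665). For ROSI the interactions were 0.02 ± 0.11 for Mt1 (95% interval -0.20 to 0.24) and -0.23 ± 0.20 for Mt2 (-0.63 to 0.18), neither called. These interactions and the comparisons with DMSO share the same DMSO libraries.

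Mtf1, the zinc sensor, did not follow the metallothioneins with TNF. It had 16.6, 17.7, 17.5 and 16.5 CPM in DMSO with TNF, against 16.2, 14.2, 18.5 and 14.4 CPM in DMSO without TNF, and these groups overlapped. Its log2 change with TNF was -0.05 ± 0.09 in SCO, -0.05 ± 0.09 in CAP7, 0.09 ± 0.09 in ROSI and 0.11 ± 0.09 in DMSO, and the 95% intervals of all 4 lay between -0.23 and 0.29. It changed with CAP7 and ROSI instead. Without TNF, Mtf1 had 18.9, 17.99, 20.3 and 18.3 CPM in SCO, 19.3, 19.4, 23.7 and 20.1 CPM in CAP7 and 20.3, 20.3, 19.8 and 23.2 CPM in ROSI. The CAP7 and ROSI libraries were all above the 4 DMSO libraries, while the SCO libraries overlapped them. The log2 change was 0.38 ± 0.09 with CAP7 (edgeR adjusted p = 0.00130) and 0.40 ± 0.09 with ROSI (adjusted p = 0.000521). With SCO it was 0.25 ± 0.09 and just missed the threshold (edgeR adjusted p = 0.0524). Without DMSO replicate 3 it was 0.33 and called (adjusted p = 0.0135).

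With TNF, Mtf1 averaged 18.2 ± 1.15 CPM in SCO, 19.9 ± 1.44 in CAP7, 22.3 ± 1.25 in ROSI and 17.1 ± 0.624 in DMSO (SD, n = 4 each). Against DMSO with TNF it rose by 0.38 ± 0.09 with ROSI (edgeR adjusted p = 0.000585), and SCO and ROSI with TNF differed by -0.29 ± 0.09 (adjusted p = 0.0203). That difference lost its call without SCO with TNF replicates 1 or 3 or ROSI with TNF replicate 4 (log2 -0.26 to -0.25), and with library totals alone or no filter on low counts (-0.20 and -0.28). With CAP7 and TNF it was 0.22 ± 0.09, a call at the edge of the threshold (edgeR adjusted p = 0.0478). It was lost in 7 of 8 fits that left out 1 library (log2 0.18 to 0.24), all but the one without CAP7 with TNF replicate 1, and also with no filter on low counts and with only the groups compared. When libraries were scaled by their total alone, the changes of Mtf1 with ROSI were 0.26 without TNF and 0.22 with TNF, still called, and that with CAP7 and TNF was 0.12 and not called.

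Slc30a1, the plasma membrane zinc exporter, whose window also held the metal response element core, changed by less than either metallothionein gene with TNF. It had 22.4, 21.5, 21.3 and 21.6 CPM in DMSO with TNF, against 14.7, 17.5, 17.6 and 17.6 CPM in DMSO without TNF, and the groups did not overlap. Its log2 change with TNF was 0.37 ± 0.09 in DMSO, or 1.29-fold (edgeR adjusted p = 0.000749), and 0.28 ± 0.09 in SCO (adjusted p = 0.0127, or 0.0501 with no filter on low counts). In CAP7 it was 0.20 ± 0.09 and missed the threshold (edgeR adjusted p = 0.0712), although it was called without CAP7 with TNF replicate 2 (log2 0.23), with library totals alone and with at least 5 CPM in 4 libraries. In ROSI there was no detectable change: Slc30a1 had 16.9, 20.5, 18.2 and 16.1 CPM in ROSI with TNF, against 17.4, 18.04, 15.7 and 20.8 CPM in ROSI without TNF, overlapping groups whose log2 difference had a 95% interval of -0.19 to 0.18. With TNF, ROSI lay below DMSO by a log2 change of -0.27 ± 0.09 (edgeR adjusted p = 0.0151), or -0.23 without ROSI with TNF replicate 4 (adjusted p = 0.0728). It was -0.43 and called with library totals alone, and -0.28 and not called with no filter on low counts. The interaction of ROSI with TNF was -0.37 ± 0.13 (edgeR adjusted p = 0.0471). It lost its call in 11 of 16 fits that left out 1 library (log2 -0.40 to -0.30) and kept it only without DMSO replicate 4, ROSI replicates 1 or 3, DMSO with TNF replicate 3, or ROSI with TNF replicate 2. No filter on low counts, limma-voom, a fit with the replicate number as a block and a fit of the groups compared alone did not call it either. Between CAP7 and ROSI with TNF the difference was 0.26 ± 0.09, not called (edgeR adjusted p = 0.0701), and 0.33 without ROSI with TNF replicate 2 (adjusted p = 0.0255). That difference was also called with library totals alone and with at least 5 CPM in 4 libraries. Without TNF none of the 3 compounds changed Slc30a1 past the threshold, with log2 differences of -0.02 ± 0.10 in SCO, 0.16 ± 0.09 in CAP7 and 0.10 ± 0.09 in ROSI.

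Of the 4 importers, Slc39a14 (ZIP14) made the widest change. In DMSO-treated cells TNF raised it 8.90-fold, and its level with TNF was lower with each compound than with DMSO. Slc39a14 had 66.7, 67.8, 75.7 and 74.4 CPM in DMSO with TNF, against 8.46, 8.55, 6.66 and 8.23 CPM in DMSO without TNF. It had 48.1, 45.6, 55.7 and 47.8 CPM in SCO with TNF, against 7.22, 7.91, 8.002 and 8.49 in SCO without TNF. It had 36.1, 41.9, 41.7 and 39.4 CPM in CAP7 with TNF, against 6.30, 4.76, 6.82 and 6.28 in CAP7 without TNF. In ROSI the values were 40.6, 41.9, 33.8 and 32.4 CPM with TNF and 7.01, 5.89, 5.47 and 4.87 CPM without. All libraries with TNF were above all libraries without it, and with TNF the 3 compounds' libraries were all below the 4 DMSO libraries. The log2 change with TNF was 2.64 ± 0.11 in SCO, 2.72 ± 0.11 in CAP7, 2.66 ± 0.11 in ROSI and 3.15 ± 0.11 in DMSO (edgeR adjusted p at most 8.58e-22).

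Against DMSO with TNF, Slc39a14 fell with all 3 compounds, by a log2 change of -0.53 ± 0.09 with SCO, -0.84 ± 0.09 with CAP7 and -0.94 ± 0.09 with ROSI (edgeR adjusted p at most 3.37e-05). On the linear scale it fell by 30.7% with SCO, fell by 44.1% with CAP7 and fell by 47.9% with ROSI. None of the 8 other settings and none of the fits without 1 library ended these 3 calls. The SCO libraries with TNF were all above those of CAP7 and of ROSI. SCO exceeded ROSI by 0.41 ± 0.09 (edgeR adjusted p = 0.00194) and CAP7 by 0.31 ± 0.09 (adjusted p = 0.0310). The excess over CAP7 was 0.25 and not called without SCO with TNF replicate 3, and 0.27 and not called without CAP7 with TNF replicate 1. CAP7 and ROSI with TNF differed by 0.10 ± 0.10 (95% interval -0.09 to 0.29), within the spread of their libraries.

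Without TNF, Slc39a14 was low and also fell with CAP7 and ROSI. The log2 change was -0.41 ± 0.12 with CAP7 (edgeR adjusted p = 0.00949) and -0.45 ± 0.12 with ROSI (adjusted p = 0.00388), and with SCO the difference was -0.02 ± 0.12. The CAP7 and ROSI groups each overlapped the DMSO group. Without CAP7 replicate 2 the CAP7 change was -0.31 and not called (edgeR adjusted p = 0.0611), and limma-voom and a fit of these groups alone did not call it either. SCO without TNF was higher than ROSI by 0.43 ± 0.12 (edgeR adjusted p = 0.0145) and higher than CAP7 by 0.39 ± 0.12 (adjusted p = 0.0496). The first was lost without SCO replicate 4 (log2 0.39) or ROSI replicate 4 (0.35). The second was lost in 7 of 8 fits that left out 1 library (log2 0.29 to 0.44), all but the one without CAP7 replicate 3. Limma-voom and a fit of the groups compared alone called neither. The second was also lost in a fit with the replicate number as a block.

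On the log2 scale the TNF response of Slc39a14 was smaller with each compound than with DMSO, with interactions of -0.51 ± 0.15 for SCO, -0.43 ± 0.15 for CAP7 and -0.49 ± 0.16 for ROSI. All 3 were close to the threshold (edgeR adjusted p = 0.0465, 0.0490 and 0.0261). In fits that left out 1 library, the SCO interaction stayed called only without SCO replicate 1, DMSO with TNF replicate 1 or SCO with TNF replicate 3, and the CAP7 interaction only without CAP7 replicate 2 or CAP7 with TNF replicate 2. In the other fits without 1 library they ran from -0.55 to -0.44 for SCO and from -0.47 to -0.36 for CAP7. The ROSI interaction lost its call without DMSO replicate 3, ROSI replicate 1 or ROSI with TNF replicates 3 or 4 (log2 -0.45 to -0.38). Limma-voom called none of the 3. A fit with the replicate number as a block ended the SCO and CAP7 calls. The CAP7 interaction was also lost with RLE factors, library totals alone and either other filter.

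Slc39a6 (ZIP6), an importer of the plasma membrane, followed a similar course at a smaller scale. It had 33.1, 34.9, 38.1 and 36.2 CPM in DMSO with TNF, against 14.8, 19.4, 17.5 and 22.3 CPM in DMSO without TNF. It had 31.8, 29.1, 35.4 and 28.2 CPM in SCO with TNF, against 16.4, 14.5, 18.5 and 16.5 in SCO without TNF. In CAP7 the values were 18.95, 23.4, 20.5 and 23.3 CPM with TNF and 17.9, 15.8, 16.8 and 13.5 CPM without. Each group with TNF was above the same treatment without it, but the CAP7 libraries with TNF lay within the range of DMSO without TNF or just above it. In ROSI it had 24.7, 25.5, 21.9 and 20.04 CPM with TNF, against 16.1, 13.4, 14.3 and 15.1 CPM without. The log2 change with TNF was 0.92 ± 0.11 in SCO, 0.43 ± 0.11 in CAP7, 0.64 ± 0.11 in ROSI and 0.96 ± 0.11 in DMSO (edgeR adjusted p at most 0.00106). Against DMSO with TNF it fell by a log2 change of -0.72 ± 0.10 with CAP7 (edgeR adjusted p = 6.08e-07) and -0.63 ± 0.11 with ROSI (adjusted p = 6.21e-06), with no overlap. With SCO the difference was -0.19 ± 0.10 (95% interval -0.40 to 0.02), not called.

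With TNF, Slc39a6 was higher with SCO than with CAP7 by 0.54 ± 0.11 (edgeR adjusted p = 0.000946) and higher than with ROSI by 0.44 ± 0.11 (adjusted p = 0.00294), and CAP7 and ROSI differed by -0.10 ± 0.11 (95% interval -0.31 to 0.12). The interaction of CAP7 with TNF was -0.52 ± 0.15 (edgeR adjusted p = 0.0155), or -0.41 and not called without DMSO replicate 1 (adjusted p = 0.0661). Those of ROSI and SCO were -0.32 ± 0.15 and -0.03 ± 0.15, not called. Without TNF, ROSI lowered Slc39a6 by a log2 change of -0.31 ± 0.11 (edgeR adjusted p = 0.0269), a call lost without DMSO replicates 2 or 4 or ROSI replicates 2 or 3 (log2 -0.30 to -0.21) and under limma-voom or a fit of the groups compared alone. The difference with CAP7 was -0.20 ± 0.11, not called, but -0.32 and called without DMSO replicate 1 (edgeR adjusted p = 0.0362) and -0.31 and called with library totals alone.

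Slc39a1 (ZIP1), a widely expressed importer of the plasma membrane, rose with TNF in all 4 treatments, and no compound changed it past the threshold against DMSO or against another compound. It averaged 190.5 ± 9.13 CPM in SCO, 188 ± 35.4 in CAP7, 207 ± 6.77 in ROSI and 194 ± 21.3 in DMSO with TNF (SD, n = 4 each). Without TNF it averaged 123 ± 4.42 CPM in SCO, 115 ± 13.6 in CAP7, 122 ± 7.72 in ROSI and 127 ± 6.30 in DMSO. Within each treatment the groups with and without TNF did not overlap, although CAP7 with TNF replicate 1, at 135 CPM, lay far below the other 3 CAP7 libraries. The log2 change with TNF was 0.63 ± 0.09 in SCO, 0.71 ± 0.09 in CAP7, 0.77 ± 0.09 in ROSI and 0.61 ± 0.09 in DMSO (edgeR adjusted p at most 5.95e-07). The 3 interactions ran from 0.03 to 0.16, none called. Against DMSO the differences of the 3 compounds ran from -0.04 to 0.10 with TNF and from -0.14 to -0.05 without TNF. Scaled by library total alone, the difference with CAP7 without TNF was -0.26 and called (edgeR adjusted p = 0.0281).

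Slc39a8 (ZIP8), the closest relative of Slc39a14, was the least counted member, with 24 to 119 counts per library. Its groups averaged between 2.90 CPM, in DMSO without TNF, and 4.09 CPM, in SCO with TNF, and every group overlapped the next in that order. It was called in none of the 19 comparisons by edgeR. Its log2 difference with TNF was 0.35 ± 0.21 in SCO, 0.04 ± 0.21 in CAP7, 0.16 ± 0.21 in ROSI and 0.25 ± 0.21 in DMSO. With this depth the 95% interval in DMSO reached from -0.19 to 0.68, so an increase of the size seen for Slc39a14 lay outside it and changes within it were not detectable at this depth.

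**Figure D2:**
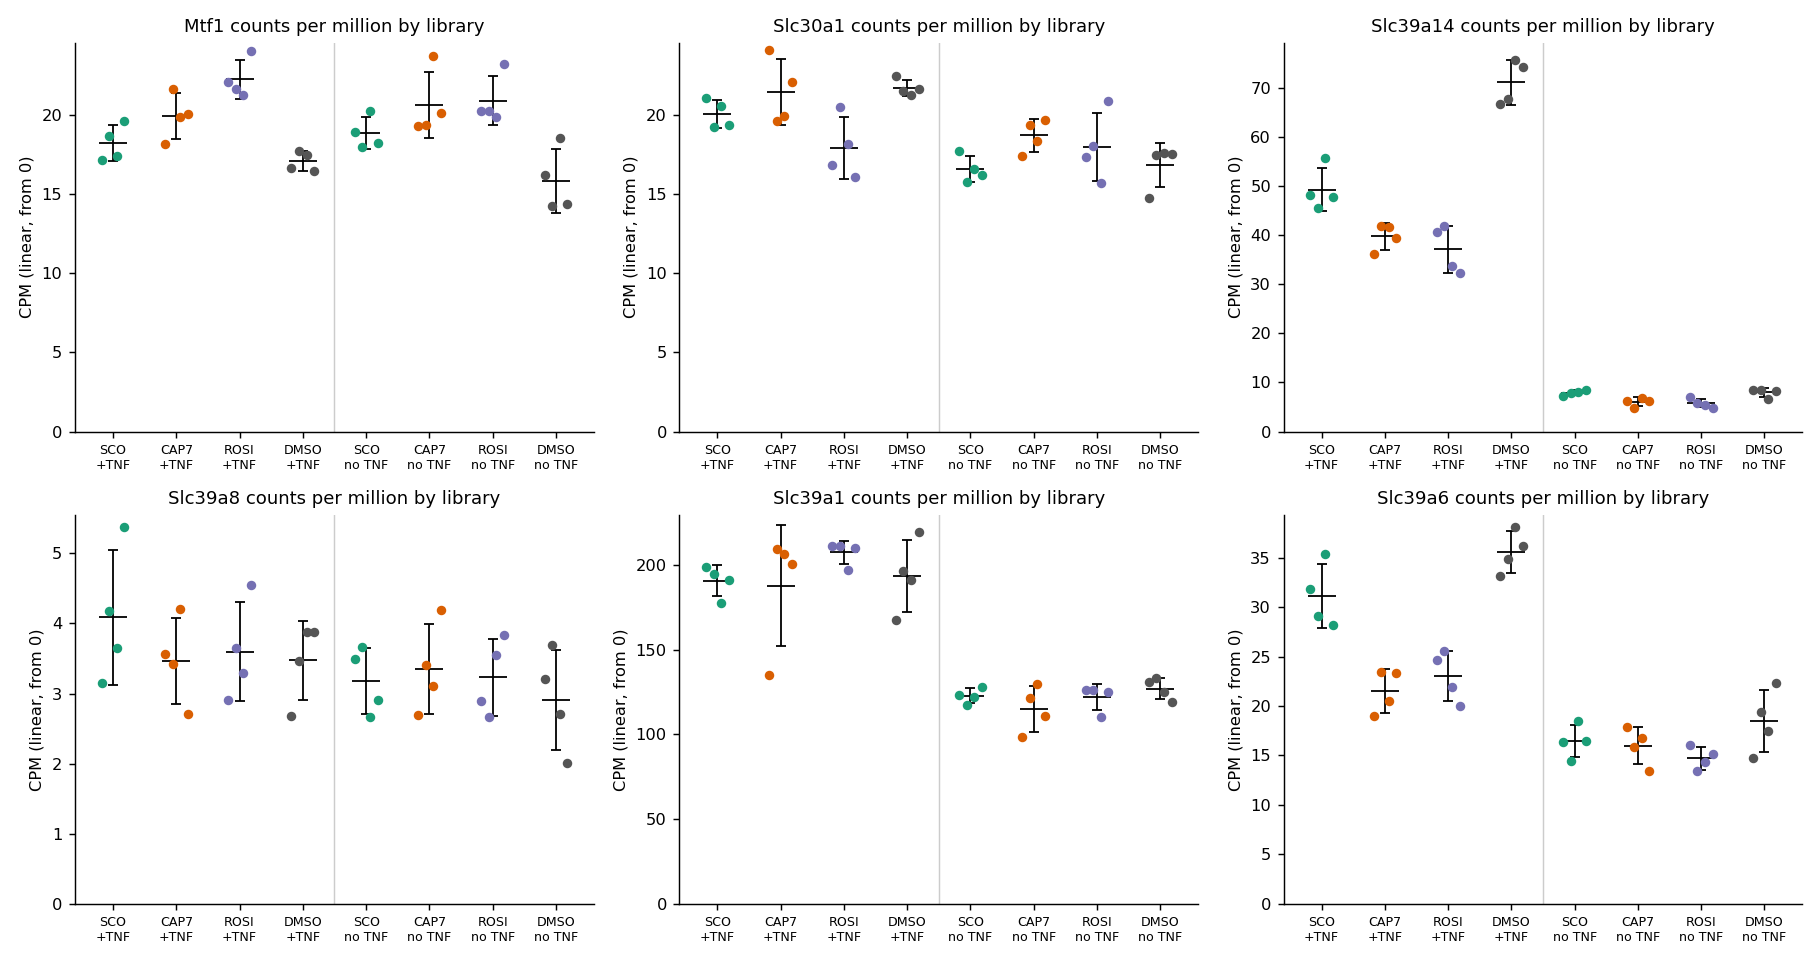
Mtf1, Slc30a1, Slc39a14, Slc39a8, Slc39a1 and Slc39a6 in CPM (linear axes from 0, a different scale in each panel) in the 32 libraries. Points are libraries in replicate order and bars the mean and SD of 4; Slc39a14 runs from 32.4 to 75.7 CPM with TNF and from 4.76 to 8.55 CPM without, while the Slc39a8 groups overlap.

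Ordered by mean level, the groups fell into the same 2 blocks for Mt1, Mt2, Slc39a14, Slc39a8, Slc39a1 and Slc39a6. The means of the 4 TNF groups lay above those of the 4 groups without TNF. For Slc39a8, however, every group overlapped the next, and no TNF change was called. Mt1 ran from CAP7 and DMSO with TNF, which overlapped, through SCO and ROSI with TNF, which overlapped, to CAP7, then SCO and DMSO, which overlapped, and ROSI without TNF, which stood apart. For Mt2 the order was the same but for DMSO with TNF at the top, and DMSO and ROSI without TNF overlapped. The highest group mean was 17.1 times the lowest for Mt2, 12.2 times for Slc39a14 and 4.64 times for Mt1. For Mtf1 that ratio was 1.41, with ROSI with TNF at the top and DMSO without TNF at the bottom, and for Slc30a1 1.31, with DMSO with TNF at the top and SCO without TNF at the bottom. In both of these genes every group overlapped the next in the order.

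Read over the 8 genes, TNF called 6 in SCO (Mt1, Mt2, Slc30a1, Slc39a14, Slc39a1 and Slc39a6), where 48.4% of all genes tested were called. It called 5 in CAP7 and 5 in ROSI, all of these but Slc30a1, where 45.8% and 47.4% of all genes were called. In DMSO it called the same 6 as in SCO, where 54.2% of all genes were called. Every one of these calls was an increase, and increases made up 25% of all genes tested in SCO, 23.4% in CAP7, 24.9% in ROSI and 26.7% in DMSO. The median log2 change of the 8 members in DMSO was 0.78, against -0.01 over all genes tested. In DMSO only 1.75% of all genes tested changed by more than Mt2 in size and 2.82% by more than Slc39a14. The members were chosen with earlier results of these data known, so these counts, medians and ranks are descriptions. The adipocyte markers moved with TNF in the opposite direction, with 6 of 6 tested lower in DMSO, and Cd68 was higher, at 10.5 ± 1.41 CPM with TNF and 0.942 ± 0.496 CPM without (SD, n = 4 each). The part of these shifts in the members' results was not tested.

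**Figure D3:**
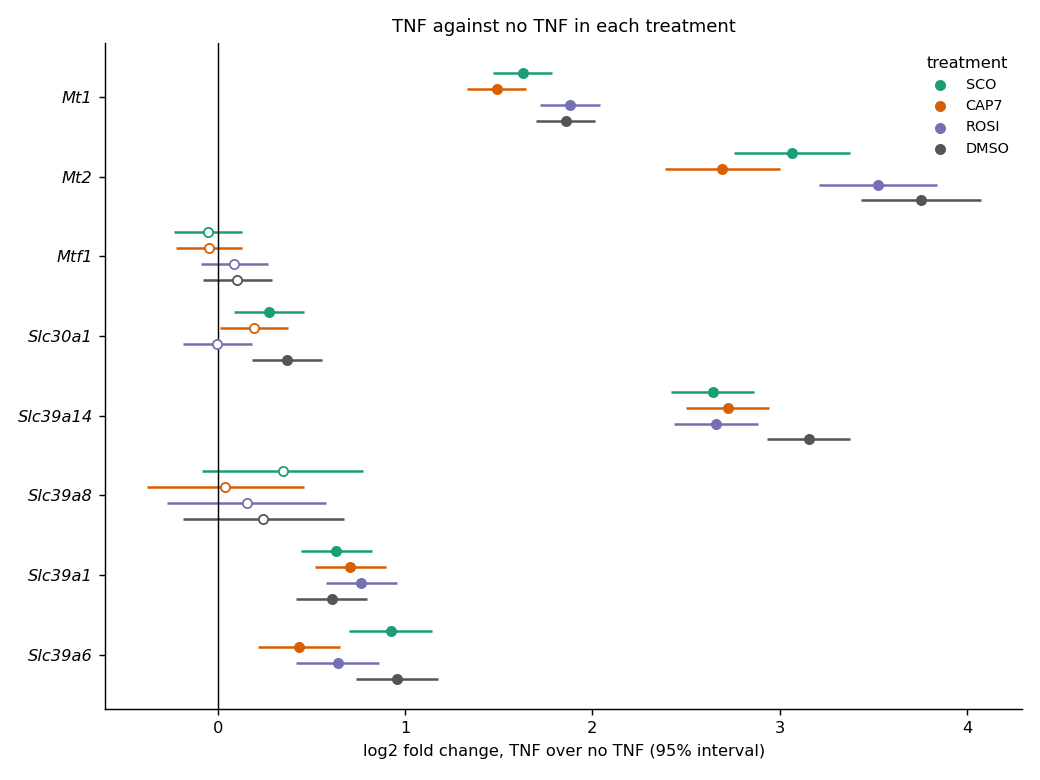
Log2 fold change with TNF over no TNF for the 8 members in SCO, CAP7, ROSI and DMSO (horizontal axis, lines are 95% intervals from edgeR, filled points are called). Mt2, Slc39a14 and Mt1 lie furthest to the right, with Mt2 between 2.69 in CAP7 and 3.75 in DMSO, and all 4 Mtf1 points are open.

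Against DMSO, the compounds called between 0 and 6 members. With TNF, SCO called 3 of 8 (Mt1, Mt2 and Slc39a14), all lower, where 21.3% of all genes were called and 8.09% were called lower. CAP7 with TNF also called 3, Slc39a14 and Slc39a6 lower and Mtf1 higher, where 32.2% were called and 14.2% lower. ROSI with TNF called 6, with Mt1, Mt2, Slc30a1, Slc39a14 and Slc39a6 lower and Mtf1 higher, where 35.9% were called and 16.3% lower. Adipocyte markers were higher in all 3 of these comparisons, with 5 of 6 called in each, and the 6 macrophage and leukocyte markers summed to 7.37 to 8.19 CPM in SCO, 5.05 to 7.68 in CAP7 and 5.58 to 6.98 in ROSI, below the DMSO range given above. Of the 5 preadipocyte and fibroblast markers tested, 4 were lower with SCO, 3 with CAP7 and 3 with ROSI, and none was higher. The part of these 3 marker lists in the members' results was not tested. Without TNF, SCO called 0 of 8 where 19.3% of all genes were called; 1 member, Mtf1, had an unadjusted p under 0.05, DESeq2 also called 0, and a fit without the filter on low counts called Mt2. CAP7 without TNF called 4 (Mt1, Mt2 and Mtf1 higher, Slc39a14 lower), against 30.3% of all genes, and ROSI called 4 (Mtf1 higher, Mt1, Slc39a14 and Slc39a6 lower), against 37.4%. Without TNF the preadipocyte and fibroblast markers were lower as well, 4 of 5 with SCO, 5 with CAP7 and 5 with ROSI, with median log2 changes of -0.50, -0.69 and -0.67. Their summed level was 642 to 718 CPM in SCO, 543 to 667 in CAP7, 656 to 748 in ROSI and 868 to 1024 in DMSO, and the adipocyte sums given above were higher with each compound, with 3 of 6 markers called higher with SCO, 3 with CAP7 and 4 with ROSI and 1 lower with each. The part of these lists in the members' results was not tested.

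Between compounds without TNF, 3 members differed between SCO and ROSI (Mt1, Mt2 and Slc39a14) where 14.7% of all genes were called, 2 between CAP7 and ROSI (Mt1 and Mt2) where 11.7% were called, and 3 between SCO and CAP7 (Mt1, Mt2 and Slc39a14) where 6.04% were called. With TNF the counts were 3 between SCO and ROSI (Mtf1, Slc39a14 and Slc39a6) against 14.4% of all genes, 1 between CAP7 and ROSI (Mt1) against 8.57%, and 2 between SCO and CAP7 (Slc39a14 and Slc39a6) against 9.16%. The interaction with TNF called 2 members for SCO (Mt2 and Slc39a14) where 4.64% of all genes were called, 4 for CAP7 (Mt1, Mt2, Slc39a14 and Slc39a6) where 16.2% were called, and 2 for ROSI (Slc30a1 and Slc39a14) where 14.6% were called. All of these interactions were negative, and negative calls made up 1.13% of all genes for SCO, 5.92% for CAP7 and 4.51% for ROSI. Scaling by library total alone moved the median of all genes to between -0.17 and -0.06 in the 6 comparisons of a compound with DMSO. Among the calls, increases without TNF then made up 35.3% (SCO), 28.8% (CAP7) and 27.8% (ROSI), against 53.4%, 50.3% and 49.2% with TMM factors. With TNF they made up 44.2% for SCO, 36.9% for CAP7 and 31.7% for ROSI, against 62.0%, 55.8% and 54.6%. In the 6 comparisons between compounds the share of increases was 57.0% to 72.0% with library totals and 39.9% to 50.2% with TMM factors. That scaling reversed no called member in the 19 comparisons.

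**Figure D4:**
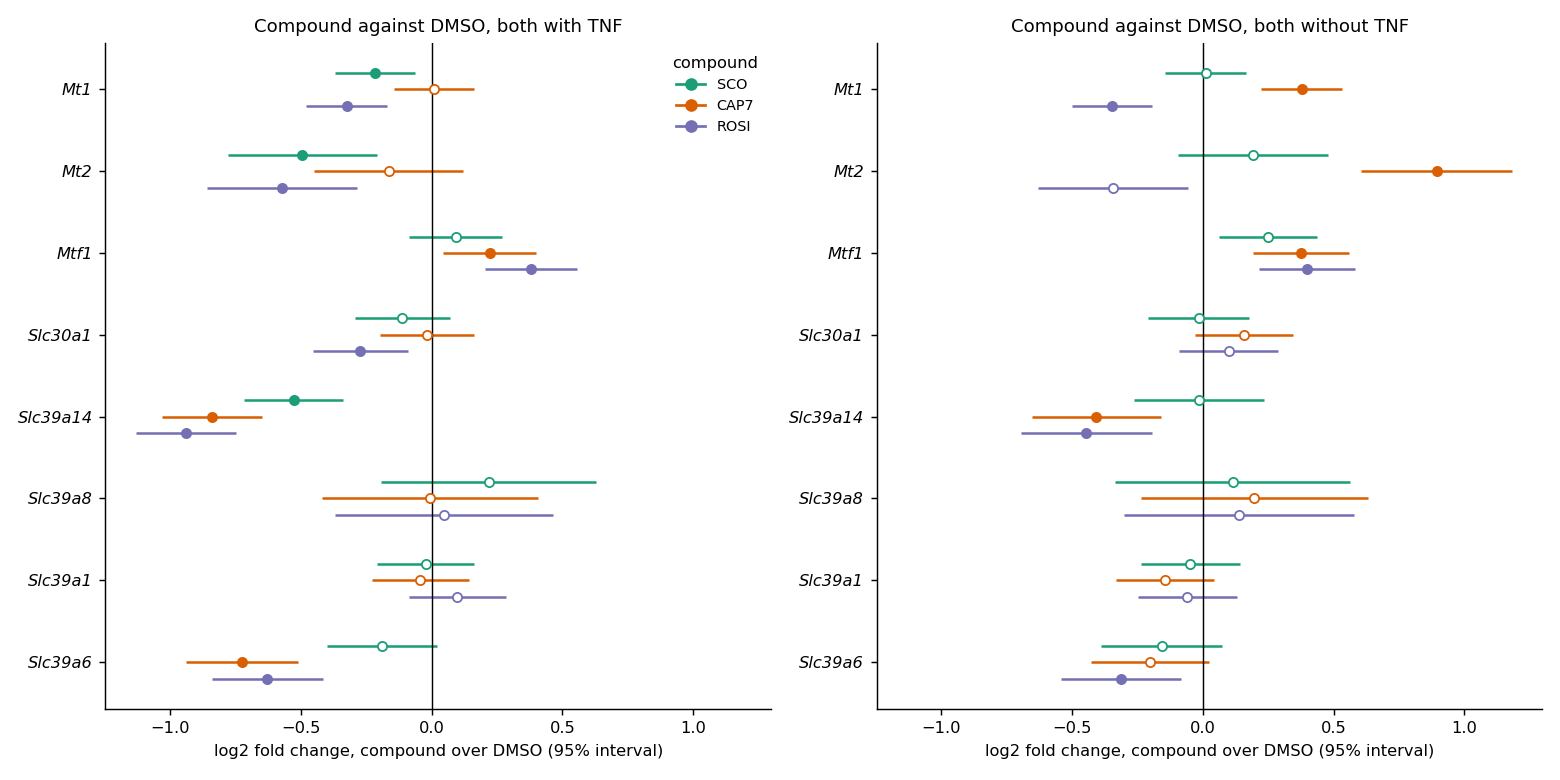
Log2 fold change of each compound over DMSO for the 8 members, with TNF (left) and without TNF (right); lines are 95% intervals from edgeR and filled points are called. Slc39a14 lies left of 0 for all 3 compounds with TNF, at -0.53, -0.84 and -0.94, and the Mt2 points without TNF spread from -0.34 with ROSI to 0.89 with CAP7.

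The other zinc transporters were listed as 9 SLC30 exporters and 10 SLC39 importers, of which 5 and 6 were counted well enough to test. With TNF in DMSO the tested SLC30 genes split, with 3 higher and 2 lower, and of the 6 SLC39 genes 4 were higher and 0 lower, where 26.7% of all genes were called higher and 27.5% lower. Slc30a4, which loads zinc into vesicles, had 105 ± 10.4 CPM with TNF and 63.02 ± 2.97 CPM without (log2 0.74 ± 0.09, edgeR adjusted p = 3.84e-09). Slc30a7, which carries zinc into the Golgi, rose by 0.60 ± 0.10, while Slc30a9, known as a mitochondrial zinc transporter, fell by a log2 change of -0.55 ± 0.06 and Slc30a5 of -0.31 ± 0.11. Slc39a11 had 58.7 ± 3.05 CPM with TNF and 31.9 ± 2.33 CPM without (log2 0.88 ± 0.07, edgeR adjusted p = 3.13e-13). Slc39a13 rose by 0.38 ± 0.10 and Slc39a10 by 0.68 ± 0.21. Slc39a4, the intestinal importer, was called at 2.72 ± 0.88 from very few counts, with 0.431 ± 0.244 CPM with TNF and 0.0637 ± 0.0807 CPM without. The median log2 change was 0.27 over the SLC30 genes and 0.53 over the SLC39 genes, against -0.01 over all genes tested.

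With TNF, Slc30a4 was lower and Slc30a9 higher with each of the 3 compounds than with DMSO. Slc30a4 changed by -0.39 ± 0.09 with SCO, -0.39 ± 0.09 with CAP7 and -0.47 ± 0.09 with ROSI (edgeR adjusted p at most 0.000974). Slc30a9 changed by 0.30 ± 0.06 with SCO, 0.36 ± 0.06 with CAP7 and 0.47 ± 0.06 with ROSI (adjusted p at most 0.000441). Without TNF, Slc30a9 was also higher with each compound, by 0.23 ± 0.06, 0.47 ± 0.06 and 0.50 ± 0.06 in the same order. Of the 6 importers, CAP7 with TNF called 1 higher and 2 lower, ROSI with TNF 1 higher and 1 lower, and SCO with TNF 0, where 32.2%, 35.9% and 21.3% of all genes were called, so these counts are near the background. Slc39a11 with TNF changed by -0.30 ± 0.07 with CAP7 and -0.35 ± 0.07 with ROSI, and Slc39a9 by 0.27 ± 0.08 with CAP7 and 0.36 ± 0.08 with ROSI.

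**Figure D5:**
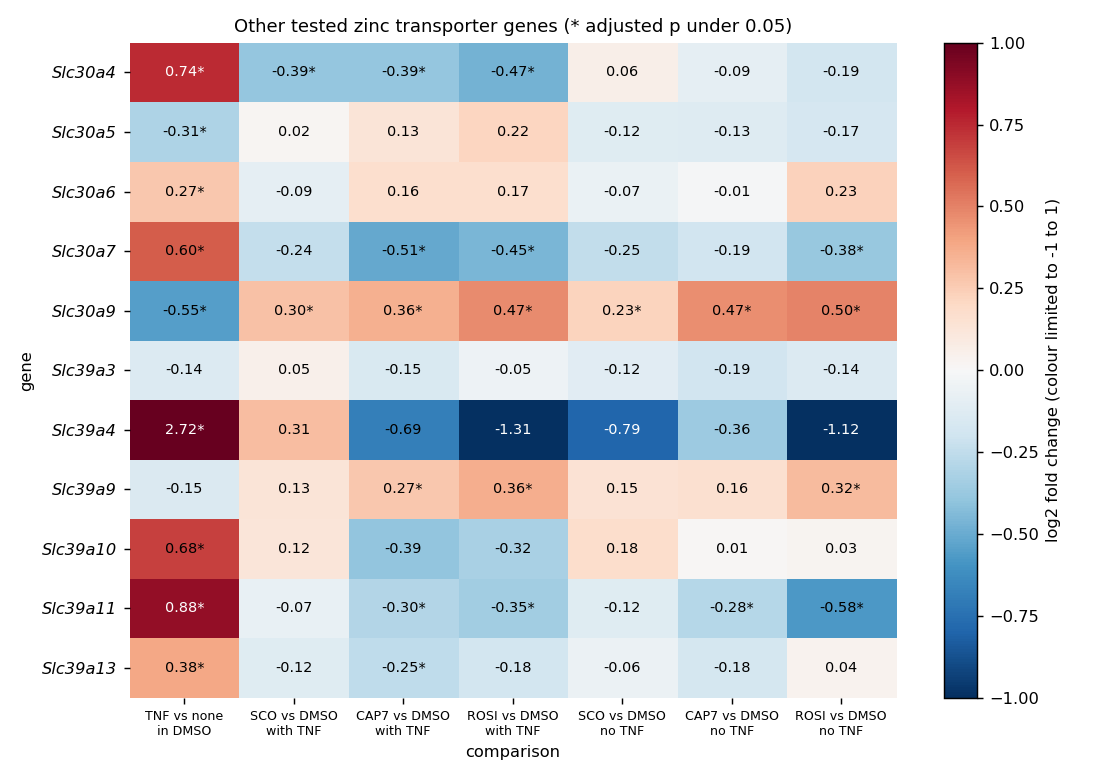
Log2 fold change of the 11 other tested zinc transporter genes (rows) in 7 comparisons (columns), with stars for an edgeR adjusted p under 0.05 and colour limited to -1 to 1. Slc30a9 is lower with TNF in DMSO (-0.55) and higher with each compound in both states, and Slc30a4 runs the other way with TNF.

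Of 4 other genes reported as MTF1 targets, 3 were tested (Pgf was not), and CAP7 raised 2 of them in both states. Of all genes tested, CAP7 raised 15.2% without TNF and 18% with TNF. Selenow, a small selenoprotein, had 116 ± 3.46 CPM in CAP7 and 42.2 ± 3.002 CPM in DMSO without TNF (log2 1.46 ± 0.07, edgeR adjusted p = 2.39e-17), and 130.3 ± 6.44 CPM in CAP7 and 49.05 ± 5.26 CPM in DMSO with TNF (1.41 ± 0.07, adjusted p = 1.87e-18). The other compounds lowered Selenow without TNF, by a log2 change of -0.39 ± 0.08 with SCO and -0.43 ± 0.08 with ROSI. Ndrg1, a stress-responsive gene, rose by 1.19 ± 0.17 with CAP7 without TNF (edgeR adjusted p = 5.12e-07) and by 0.48 ± 0.16 with TNF (adjusted p = 0.0204). Gclc, a glutathione synthesis enzyme, was 0.32 ± 0.14 with CAP7 without TNF and not called, but rose with SCO by 0.57 ± 0.14 without TNF and 0.39 ± 0.14 with TNF. With TNF in DMSO the log2 difference was 0.22 ± 0.07 for Selenow and 0.41 ± 0.17 for Ndrg1, both called, and -0.09 ± 0.14 for Gclc, not called. In that comparison 26.7% of all genes tested were called higher.

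Across the 32 libraries Mt1 and Mt2 had a Pearson r of 0.997 in log2 CPM, and 0.928 after each group's mean was taken off, so the pair also varied together among replicates of a group. Mt1 and Slc39a14 had an r of 0.951 across libraries but -0.028 after the group means were taken off. Libraries share treatments, and these values are descriptions. Among 6828 well-counted genes outside the members, those most like Mt1 across libraries were Resf1, Tnip1 and Bcl3 (r 0.979, 0.978 and 0.977), and those most like Mt2 were Gng12, Tnip1 and Smpd1 (0.978, 0.977 and 0.976). Slc39a14 was closest to Bid, Il6st and Pdpn (r 0.993, 0.992 and 0.991). Slc30a1 had weaker matches, the best being Cacul1, Hnrnpll and Abca1 (r 0.786, 0.751 and 0.749). Slc39a8 was nearest to Anapc7, Usp10 and Alg5 (0.662, 0.616 and 0.607). After the group means were taken off, r was 0.397, 0.252 and 0.278 for the genes named for Mt1, in the same order. It was 0.052, 0.314 and -0.172 for those of Mt2, and 0.384, -0.048 and 0.287 for those of Slc39a14. For Slc30a1 the values were 0.389, 0.428 and 0.537, and for Slc39a8 0.611, 0.522 and 0.544.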

How the data were processed

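Per the labels' protocols, libraries were made from total RNA with a QuantSeq 3' mRNA kit. The authors deposited unnormalized whole-number counts for each Ensembl gene. The submitters' processing notes name HTSeq 2.0.5, STAR 2.7.11b, cutadapt 4.9, limma 3.60.6, R 4.4.1 and build GRCm39, but the sources used here give no annotation release, strand setting or rule for reads with several matches. Symbols and promoters came from GRCm38 tables.

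A model with 1 mean per group was fitted to all 32 libraries by edgeR 4.0.16 (R 4.3.3), with TMM factors, filterByExpr and the quasi-likelihood F test (24 residual degrees of freedom). The 19 comparisons were TNF against none in each treatment, each compound against DMSO and against each other compound in both states, and 3 interactions. Intervals are 95%. Library totals of 11.3 to 37.7 M counts set the precision, which was least for Slc39a8. The code was tested on simulated counts.

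All 4 same-numbered pairs correlated above 0.1 only for TNF against none in SCO (lowest r 0.130), where a replicate block changed no member's call. Alternatives were RLE factors, library total alone, no filter or at least 5 CPM in 4 libraries, limma-voom (limma 3.58.1), DESeq2 1.42.0, the block, only the groups compared, and leaving out each library. For single genes between compounds they were added after seeing the data.

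The members and gene lists were chosen with earlier results of these data known. Named genes are all members, up to 4 genes of a list with the lowest p in a comparison, and the 3 genes most correlated with each of 5 members (log2 CPM, prior count 2, mean of at least 16 CPM).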

Additional observations from a re-analysis of the deposited data

Results flagged for a closer look

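In 6 of 64 groups of 4 libraries, 1 library lay far from the other 3 (Dixon's test at 95%, which chance flags in about 1 of 20 groups). For Mtf1 this was ROSI without TNF replicate 4, at 23.2 CPM, with the others from 19.8 to 20.3. For Slc30a1 it was DMSO without TNF replicate 1, at 14.7 CPM, with the others from 17.5 to 17.6, and for Slc39a14 DMSO without TNF replicate 3, at 6.66 CPM, with the others from 8.23 to 8.55. Slc39a1 was flagged in 3 groups: CAP7 with TNF replicate 1, at 135 CPM, with the others from 200.4 to 209; ROSI with TNF replicate 3, at 197 CPM, with the others from 209.9 to 211; and ROSI without TNF replicate 3, at 110.2 CPM, with the others from 125 to 126.

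In 8 of 24 interactions tested by edgeR, the TNF response of a member was called different between a compound and DMSO. Of all genes tested, 4.64% were called for SCO, 16.2% for CAP7 and 14.6% for ROSI. For Mt2 the differences in log2 change were -1.06 with CAP7 and -0.69 with SCO, and for Mt1 -0.37 with CAP7. For Slc39a14 they were -0.51 with SCO, -0.43 with CAP7 and -0.49 with ROSI. For Slc39a6 the difference was -0.52 with CAP7, and for Slc30a1 -0.37 with ROSI. Leaving out 1 library ended the call in 14 of 16 fits for Slc39a14 with CAP7 and in 13 of 16 with SCO. It did so in 11 of 16 for Slc30a1 with ROSI and in 10 of 16 for Mt2 with SCO. For Slc39a14 with ROSI it did so in 4 of 16, and for Slc39a6 with CAP7 in 1 of 16. The Mt1 and Mt2 calls with CAP7 were never lost.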

How the results depend on the processing

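Over 19 comparisons and 8 members there were 152 fold changes, of which no called one reversed under any alternative. The call stayed on its side of the threshold for 150 with RLE factors, 143 with library total alone, 139 with no filter, 145 with the replicate block, 141 with limma-voom, 150 with DESeq2 and 145 with only the groups compared. With at least 5 CPM in 4 libraries Slc39a8 was not tested, and 128 of 133 stayed. Leaving out 1 library kept 1311 of 1408, with 89 weaker and 8 stronger.

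Members called by CAP7 against ROSI with TNF were 1, but 3 with library total alone, 2 with no filter, 2 with the stricter filter, 2 with the replicate block, 2 with limma-voom and 2 with only the groups compared. For the interaction of ROSI they were 2, but 1 with no filter, 1 with the block, 0 with limma-voom and 1 with only the groups compared. For the interaction of SCO they were 2, but 1 with the block, 1 with limma-voom and 1 with DESeq2. For SCO against CAP7 with TNF they were 2, but 4 with no filter and 3 with RLE factors, the stricter filter, the block, limma-voom or DESeq2, and for SCO against DMSO without TNF 0, but 1 with no filter. The cause was not tested. Leaving out 1 library gave 1 to 3 for CAP7 against ROSI with TNF, 2 to 4 for the interaction of CAP7, 0 to 2 for those of ROSI and SCO, 1 to 3 for SCO against CAP7 with TNF and SCO against DMSO with TNF, 0 to 1 for SCO against DMSO without TNF, and 1 to 3 for SCO against ROSI without TNF. The replicate block moved 7 calls, all of values near the threshold: Mt1 in SCO against CAP7 with TNF, Mt2 in CAP7 against ROSI with TNF and in ROSI against DMSO without TNF, Slc39a14 in SCO against CAP7 without TNF and in the interactions of CAP7 and SCO, and Slc30a1 in that of ROSI. In 14 of 32 libraries, the same replicate number gave the highest mean correlation with libraries of other groups. That is more than the 1 in 4 that chance would give, and whether the numbers mark shared cultures was not tested. Low depth limits Slc39a8, with 24 to 119 counts a library.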

Other observations

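Genes linked to the known inducers of metallothioneins were counted list by list. With TNF in DMSO, 26.7% of all genes tested were called higher and 27.5% lower. Of 9 genes listed for IL-6 and STAT3 (among them Il6, receptor genes and Stat3 itself), 9 were higher with TNF in DMSO. Their median log2 change was 3.05. Whether IL-6 or STAT3 acted in these cells was not tested. Bcl3, a nuclear IκB protein, rose by 3.77 ± 0.12, Junb by 3.48 ± 0.11, Osmr, the oncostatin M receptor, by 3.21 ± 0.12 and Il6st, the shared receptor subunit gp130, by 1.99 ± 0.06. Against DMSO with TNF, 6 of these 9 were lower with SCO, 7 with CAP7 and 7 with ROSI, where 8.09%, 14.2% and 16.3% of all genes were called lower. Of 9 glucocorticoid-responsive genes, TNF in DMSO called 4 higher and 3 lower, with Tsc22d3 at -0.86 ± 0.08 and Sgk1 at 1.56 ± 0.17.

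Of 7 NRF2 target genes and regulators, TNF called 4 higher and 1 lower in SCO, 2 and 2 in CAP7, 2 and 2 in ROSI, and 6 and 0 in DMSO (median log2 changes 0.32, 0.06, 0.12 and 0.60). Of all genes tested, TNF called 25% higher and 23.3% lower in SCO, and 23.4% and 22.4% in CAP7. It called 24.9% and 22.5% in ROSI and 26.7% and 27.5% in DMSO. The counts in CAP7 and ROSI are near these shares. Without TNF, SCO raised 5, CAP7 raised 6 and lowered 1, and ROSI raised 5 and lowered 1, where 10.3%, 15.2% and 18.4% of all genes were called higher. In the same order, 8.99%, 15% and 19% of all genes were called lower. With TNF, SCO raised 4, CAP7 raised 3 and lowered 1, and ROSI raised 0 and lowered 2 (median -0.25), where 13.2%, 18.0% and 19.6% of all genes were called higher. The shares called lower were 8.09%, 14.2% and 16.3% of all genes. Hmox1, heme oxygenase, averaged 351 ± 68.7 CPM in SCO, 561 ± 76.9 in CAP7, 292 ± 73.5 in ROSI and 113 ± 13.8 in DMSO without TNF (SD, n = 4 each), and with CAP7 it rose by 2.31 ± 0.21 (edgeR adjusted p = 4.60e-11). Nqo1 changed by -0.74 ± 0.12 with CAP7 in the same comparison.

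Other metals showed both directions with TNF in DMSO. Of 11 iron genes, 4 were higher and 5 lower, where 54.2% of all genes were called in either direction. Cp, a ferroxidase, rose by 2.50 ± 0.09 and Slc11a2, an iron importer, by 1.37 ± 0.06, Fth1, the ferritin heavy chain, rose by 1.04 ± 0.06, and Tfrc, the transferrin receptor, changed by -1.79 ± 0.10. Of 7 copper genes tested, 3 were higher and 4 lower, against the same 54.2% of all genes, with Sod1 at -0.97 ± 0.07 and the copper exporter Atp7a at 0.64 ± 0.14.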
